A study of Mus musculus with 8 samples.

Results

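Axon guidance molecules steer growing nerve fibres: secreted or membrane-bound ligands bind receptors on the growth cone, which then turns, advances or collapses. Semaphorins signal through plexins, with neuropilins as co-receptors for most secreted semaphorins, netrins signal through DCC, neogenin and the UNC5 receptors, and SLIT proteins through the ROBO receptors. Outside the nervous system the same families act in blood vessel growth, cell migration and adhesion. Described here are 10 genes of these families in mouse embryonic stem (ES) cells, 4 ligand genes (Sema3e, Sema5a, Sema6a and Ntn1) and 6 receptor genes (Nrp1, Nrp2, Plxna1, Plxna2, Unc5b and Robo1), of 47069 genes in the deposited tables. They were matched by symbol to Ensembl identifiers. The set was chosen from measured values, since Sema5a, Nrp2 and Unc5b separated the knockouts from each other. The differences between knockouts are given below as a description with no test.

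The study sequenced poly-A RNA of C57BL/6 mouse ES cells in 4 groups of 2 libraries. The groups were wild type cells (WT), Pcgf3 knockout cells (Pcgf3KO), Pcgf5 knockout cells (Pcgf5KO) and Pcgf3/5 double knockout cells (DKO). All knockouts were made with Cas9, and the number of clones behind a group is not given in the sources used here. PCGF3 and PCGF5 are RING finger subunits of variant Polycomb repressive complex 1, which places ubiquitin on histone H2A. Every group grew with serum and LIF, a cytokine that keeps ES cells self-renewing, on a layer of mouse embryonic fibroblasts stopped from dividing by mitomycin, and RNA of these feeder cells can be in each library. Nothing in the labels says that replicates came from separate cultures, so the p-values measure the spread between these libraries, which may be technical.

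The 7 libraries that cover all genes held 12652616 to 19923964 counts. The WT replicate 1 table, as used here, stops in mid-line after 8093 genes (3459002 counts) and lists 4 of the 10 members, Nrp1, Nrp2, Plxna1 and Unc5b. For the other 6, WT is 1 library with no replicate check. Levels are given as CPM, counts per 1000000 counts of the library after TMM, a correction for library composition, in the 7 full libraries unless stated. Pcgf3 was at 60.5 to 66.1 CPM in Pcgf3KO, 67.2 to 86.6 in DKO and 92.3 to 94.1 in Pcgf5KO, below 110 in WT. Pcgf5 was at 9.06 to 12.3 CPM in Pcgf5KO, 13.5 to 13.9 in DKO and 17.3 to 17.4 in Pcgf3KO, below 20.7 in WT. Each was lowest in its own single knockout and still read in all knockout libraries. A Cas9 edit need not lower a transcript.

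The ES cell label was checked against 12 markers, all of which passed the filter on low counts. Their summed level, led by Tdgf1 and Dppa5a, was 3298 CPM in WT, 3860 to 3987 in Pcgf3KO, 4081 to 4100 in Pcgf5KO and 3613 to 3749 in DKO. The 22 feeder fibroblast markers, led by Fstl1 and Tagln, summed to 459 CPM in WT, 312 to 324 in Pcgf3KO, 371 to 385 in Pcgf5KO and 367 to 374 in DKO. The 12 neural markers, led by Stmn2 and Tubb3, summed to 758 CPM in WT and, in the same order of knockouts, 530 to 564, 636 to 657 and 471 to 539. The 12 endoderm markers, led by Lamb1 and Lama1, summed to 864 CPM in WT and 502 to 521, 504 to 524 and 548 to 614. Of the feeder, neural and endoderm markers tested, 5 of 20, 3 of 11 and 4 of 9 were called lower in Pcgf3KO than in WT, 1, 2 and 4 in Pcgf5KO, and 5, 5 and 3 in DKO, where 1.28%, 1.68% and 1.89% of all genes tested were called lower. Of the 12 ES cell markers 3, 4 and 3 were called higher in Pcgf3KO, Pcgf5KO and DKO, where 1.08%, 1.31% and 1.33% of all genes were. The 8 endothelial markers, led by Pecam1 and Tek, summed to 219 CPM in WT and 225 to 248 in the knockouts, with Emcn at 0 reads in all 7 libraries. That sum holds opposite moves. Pecam1 was at 53.8 CPM in WT and 135 and 129 in Pcgf3KO, while Tek was at 92.3 and at 73.9 and 77.8. Of the 6 endothelial markers tested, 1, 1 and 1 were called higher in Pcgf3KO, Pcgf5KO and DKO, and 1, 0 and 1 lower.

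**Figure D1:**
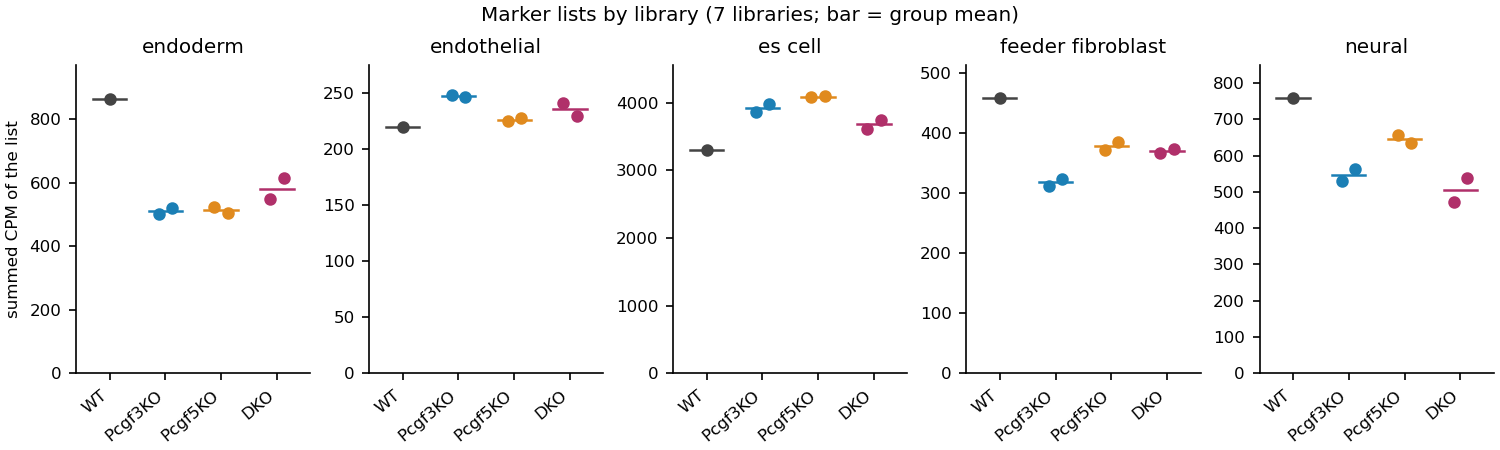
Summed CPM (vertical axis, from 0) of 5 marker lists in each of the 7 full libraries by group (horizontal axis), with points for libraries and bars for group means. The feeder, neural and endoderm sums were highest in the WT library (459, 758 and 864 CPM), while the ES cell sum was lowest there (3298 CPM).

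Promoter sequences are shown for the 3 genes that gave rise to the set, as the windows just before their annotated starts. Each is the stretch of 250 bases before the RefSeq start (GRCm38.p6, the assembly of mm10), 5′ to 3′ on the gene's strand, with every CG dinucleotide in capitals. Sema5a is at chr15:32244563-32244812 (plus strand), Nrp2 at chr1:62703067-62703284 (plus strand, shown up to the gene start of the deposited tables, the first 218 bases of its window) and Unc5b at chr10:60831582-60831831 (minus strand). The Sema5a window overlaps with the 5′ end of Snhg18, a noncoding RNA gene on the other strand.
Sema5a: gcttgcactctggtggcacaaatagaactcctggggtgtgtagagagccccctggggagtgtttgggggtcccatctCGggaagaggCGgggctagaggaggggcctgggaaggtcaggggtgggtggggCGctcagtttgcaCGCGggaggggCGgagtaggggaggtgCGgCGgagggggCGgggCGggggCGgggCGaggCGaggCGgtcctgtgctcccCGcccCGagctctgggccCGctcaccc
Nrp2: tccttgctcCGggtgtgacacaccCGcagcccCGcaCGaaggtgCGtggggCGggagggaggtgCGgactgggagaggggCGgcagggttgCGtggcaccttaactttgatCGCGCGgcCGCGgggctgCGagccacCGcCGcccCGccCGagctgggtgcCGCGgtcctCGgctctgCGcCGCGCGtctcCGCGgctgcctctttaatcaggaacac
Unc5b: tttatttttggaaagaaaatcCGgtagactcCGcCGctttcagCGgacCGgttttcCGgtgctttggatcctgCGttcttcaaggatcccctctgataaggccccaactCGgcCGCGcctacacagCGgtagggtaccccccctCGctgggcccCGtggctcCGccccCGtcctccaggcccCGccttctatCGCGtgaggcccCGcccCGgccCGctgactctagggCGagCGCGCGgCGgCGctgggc
The full Nrp2 window holds 32 CG dinucleotides and the Unc5b window 27, more than 95.4% and 91.4% of 32851 RefSeq promoter windows of the same length have. The Sema5a window holds 17, more than 76.5% have, and the median window holds 6. By the ratio of observed to expected CG, Nrp2 (0.985) and Unc5b (0.987) lie together and Sema5a lower (0.59), against a median of 0.374. Entries were found for 7 of the 10 members. Of the other 4 windows, Plxna2 holds 18 CG, Nrp1 and Robo1 11 each and Sema3e 7. The Plxna2 window, from 194619579 to 194619828, lies inside the gene as the deposited tables place it (start 194618218). The palindrome CACGTG, the core letters bound by USF and MAX family factors, is in 0 of these 7 windows and in 6.02% of all windows.

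Per kilobase of exon, the members spanned a wide range of levels. Plxna1 was highest with a median of 20.9 CPM per kb over the 7 libraries (19.8 to 23.7), and its range did not overlap with that of any other member. Ntn1 (median 10.5), Nrp2 (8.86), Unc5b (4.7) and Robo1 (4.29) followed. From Ntn1 to Robo1 each range overlapped with the next, while Robo1 (lowest value 4.14) did not overlap with Sema3e (highest 3.59). Sema3e (3.2) and Sema6a (2.68) overlapped with each other, as did Sema5a (0.701) and Plxna2 (0.531). Nrp1 was last with 0.0686 CPM per kb (0.0463 to 0.111), from 9 to 19 reads a library. Of the neuropilin genes, these libraries thus held Nrp2 RNA at a median of 8.86 and Nrp1 RNA at 0.0686 CPM per kb.

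Sema5a, the gene of a membrane-spanning semaphorin, lies on chromosome 15 (32244813 to 32696341, plus strand, mm10; ENSMUSG00000022231). It had 17.8 CPM in the WT library, 13.1 and 13 in the Pcgf3KO libraries, 9.53 and 8.98 in the Pcgf5KO libraries, and 32.3 and 25.8 in the DKO libraries. The order was the same in every library: both DKO libraries lay above WT, and every single knockout library lay below it. The DKO level was higher than that of Pcgf3KO by 1.15 ± 0.14 and than that of Pcgf5KO by 1.65 ± 0.14 on the log2 scale (± standard error of the fit). The bulk RNA does not tell fewer cells with a transcript from less of it per cell. These are the widest differences between knockouts among the 10 genes. Between the single knockouts, Pcgf5KO was lower than Pcgf3KO (log2 difference −0.49 ± 0.15).

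Against WT, Sema5a fell in Pcgf5KO (log2 fold change −0.94 ± 0.17, adjusted p = 0.0261 in edgeR's quasi-likelihood test). Sema5a was among the genes that prompted the set and this test uses the same Pcgf5KO libraries, so the call is not independent of that choice. It did not pass in Pcgf3KO (−0.45 ± 0.17, adjusted p = 0.226) or DKO (0.71 ± 0.17, adjusted p = 0.056), so its values there are above or below WT without a call. The feeder, neural and endoderm marker sums were below WT in all knockouts, and their part in these values was not tested. The call in Pcgf5KO was lost without any 1 of the Pcgf3KO or Pcgf5KO libraries, with adjusted p of 0.0813 and 0.0831 without Pcgf3KO replicates 1 and 2, and 0.201 and 0.218 without Pcgf5KO replicates 1 and 2. In DKO the log2 fold change was 0.54 without DKO replicate 1 and 0.86 without DKO replicate 2. Those fits leave 1 library in DKO and in WT.

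Sema6a (chromosome 18, 47235598 to 47368870, minus strand; ENSMUSG00000019647), another transmembrane semaphorin and a ligand of plexin A2 and A4, had 39.6 CPM in WT. The Pcgf3KO libraries had 19.8 and 18.6, the Pcgf5KO libraries 22.1 and 26.7, and the DKO libraries 23.6 and 34.5. All 6 knockout libraries were below the WT library, and the DKO libraries were far apart. Sema6a fell in Pcgf3KO (−1.05 ± 0.21, adjusted p = 0.0333). In Pcgf5KO (−0.70 ± 0.21, adjusted p = 0.113) and DKO (−0.44 ± 0.20, adjusted p = 0.271) it did not pass. The DKO value was −0.20 without DKO replicate 1 and −0.75 without DKO replicate 2, in fits that leave 1 library in DKO and in WT. The fall in Pcgf3KO stood beside feeder, neural and endoderm sums that were also below WT, and their part in it was not tested. Its adjusted p was 0.198 and 0.238 without Pcgf3KO replicates 1 and 2, and 0.0783 and 0.0787 without Pcgf5KO replicates 1 and 2.

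Ntn1 encodes netrin-1, a secreted ligand that attracts through DCC and repels through UNC5 receptors (chromosome 11, 68209364 to 68400823, minus strand; ENSMUSG00000020902). It had 59.4 CPM in the WT library, 65.4 and 65.6 in the Pcgf3KO libraries, 94.3 and 97.2 in the Pcgf5KO libraries, and 38.9 and 84.4 in the DKO libraries. The Pcgf5KO libraries were the highest, and DKO replicate 1 the lowest of all 7 while DKO replicate 2 was the third highest. The log2 difference of Pcgf5KO from Pcgf3KO was 0.55 ± 0.26 and that of DKO from Pcgf5KO −0.63 ± 0.26, which was −1.29 without DKO replicate 2 and −0.18 without DKO replicate 1. Against WT it passed in no comparison (0.69 ± 0.33 in Pcgf5KO, adjusted p = 0.294). The DKO value against WT turned from 0.05 ± 0.33 (adjusted p = 0.943) to −0.61 without DKO replicate 2 and 0.50 without DKO replicate 1. So 1 library decides its sign. No p is given for those fits, which leave 1 library in DKO and in WT.

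Sema3e, a secreted semaphorin that binds plexin D1 directly (chromosome 5, 14025276 to 14256689, plus strand; ENSMUSG00000063531), varied least among the ligand genes. It had 33.3 CPM in the WT library, 33.2 and 29.8 in the Pcgf3KO libraries, 26.2 and 30.8 in the Pcgf5KO libraries, and 28 and 23.9 in the DKO libraries. WT was highest, next to Pcgf3KO replicate 1, and the knockouts overlapped except DKO with Pcgf3KO. None of its log2 fold changes against WT passed (−0.08 ± 0.15, −0.23 ± 0.15 and −0.36 ± 0.15 in Pcgf3KO, Pcgf5KO and DKO, adjusted p = 0.85, 0.448 and 0.233).

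**Figure D2:**
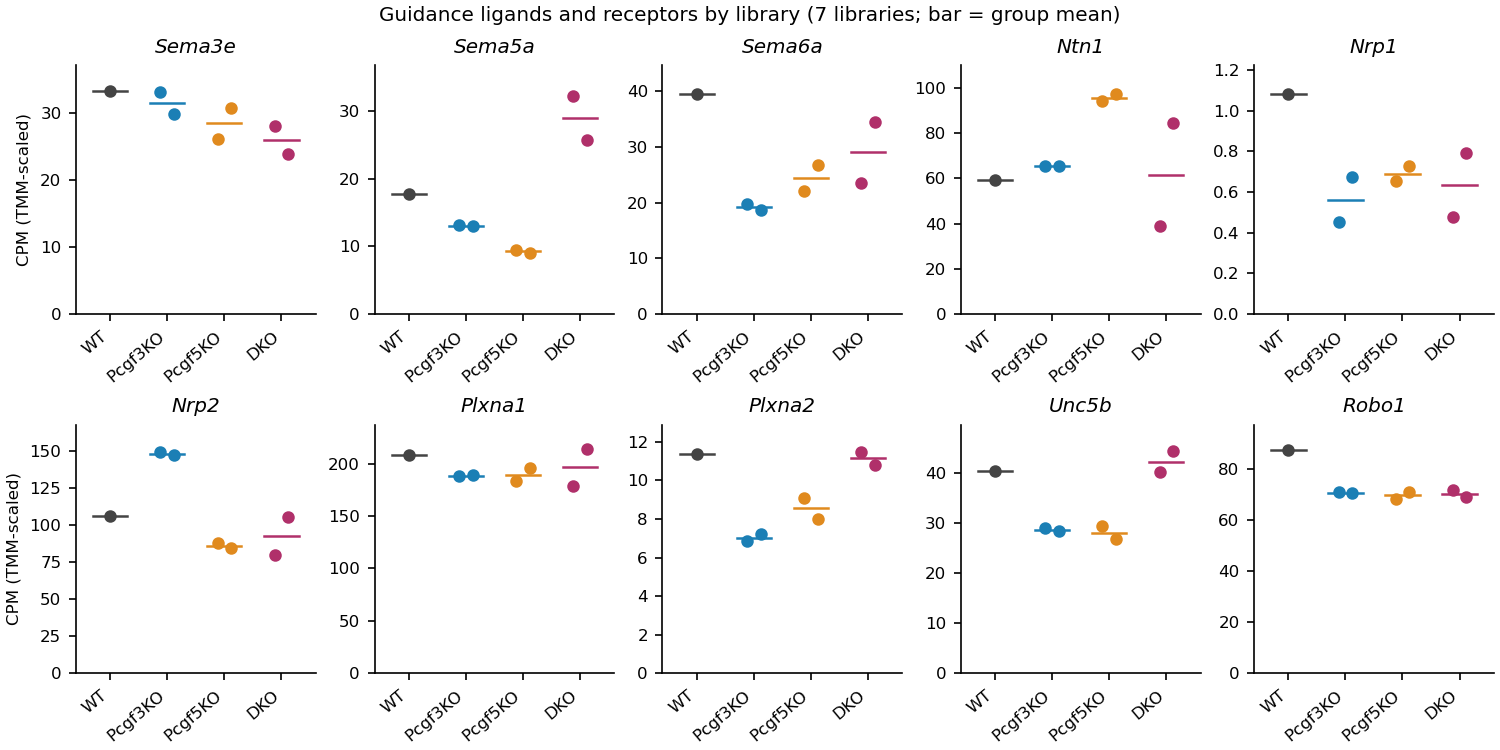
CPM (vertical axis, from 0) of the 10 members in the 7 full libraries by group (horizontal axis), with points for libraries and bars for group means. Sema5a is highest in DKO (32.3 and 25.8), Nrp2 in Pcgf3KO (149 and 147) and Ntn1 in Pcgf5KO (94.3 and 97.2), and Unc5b and Plxna2 are lower in both single knockouts than in WT and DKO.

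Nrp2 encodes neuropilin-2, a co-receptor for class 3 semaphorins and VEGF-C (chromosome 1, 62703285 to 62818695, plus strand; ENSMUSG00000025969). It had 106 CPM in the WT library, 149 and 147 in the Pcgf3KO libraries, 87.7 and 84.2 in the Pcgf5KO libraries, and 79.4 and 105 in the DKO libraries. Pcgf3KO stood above every other library, and DKO and Pcgf5KO overlapped. The log2 difference of Pcgf5KO from Pcgf3KO was −0.79 ± 0.12 and that of DKO from Pcgf3KO −0.68 ± 0.12, while DKO differed from Pcgf5KO by 0.10 ± 0.12, a value that turned to −0.11 without DKO replicate 2. On the scale of genes listed in all 8 libraries, with both WT libraries, Nrp2 had 692 and 597 CPM in the WT libraries, 840 and 832 in the Pcgf3KO libraries, 492 and 471 in the Pcgf5KO libraries, and 449 and 593 in the DKO libraries. WT thus lay between the single knockouts, with no overlap. Neither test against WT called it. With 7 libraries the log2 fold change was 0.48 ± 0.15 in Pcgf3KO (adjusted p = 0.138) and −0.30 ± 0.14 in Pcgf5KO (adjusted p = 0.29), and with 8 it was 0.37 ± 0.12 (adjusted p = 0.103) and −0.42 ± 0.12 (adjusted p = 0.058).

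Unc5b encodes a netrin receptor that also acts in blood vessels (chromosome 10, 60762610 to 60831581, minus strand; ENSMUSG00000020099). It had 40.5 CPM in the WT library, 29 and 28.5 in the Pcgf3KO libraries, 29.4 and 26.8 in the Pcgf5KO libraries, and 40.3 and 44.4 in the DKO libraries. The single knockouts overlapped and lay below DKO, which differed from Pcgf3KO by 0.56 ± 0.10 and from Pcgf5KO by 0.59 ± 0.10 on the log2 scale. On the 8-library scale it had 207 and 228 CPM in the WT libraries, 163 and 161 in the Pcgf3KO libraries, 165 and 150 in the Pcgf5KO libraries, and 228 and 251 in the DKO libraries. Both single knockouts were below both WT libraries, and DKO overlapped with WT.

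In the 8-library test Unc5b fell in Pcgf3KO (−0.43 ± 0.10, adjusted p = 0.0385) and in Pcgf5KO (−0.46 ± 0.11, adjusted p = 0.0242), the only calls among the 4 members that this test covers, where 5.51% and 8.62% of 2702 genes were called, 2.33% and 4.29% lower. In DKO it did not pass (0.14 ± 0.10, adjusted p = 0.412), where 8.11% of genes were called. With 7 libraries the values were −0.50 ± 0.12 (adjusted p = 0.0731) and −0.52 ± 0.12 (adjusted p = 0.0595), past no threshold. The 8-library calls were lost without WT replicate 1 (0.0788 and 0.0562) or WT replicate 2 (0.197 and 0.134). Unc5b was among the genes that prompted the set, and these tests use the same knockout libraries, so they are not independent of that choice.

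**Figure D3:**
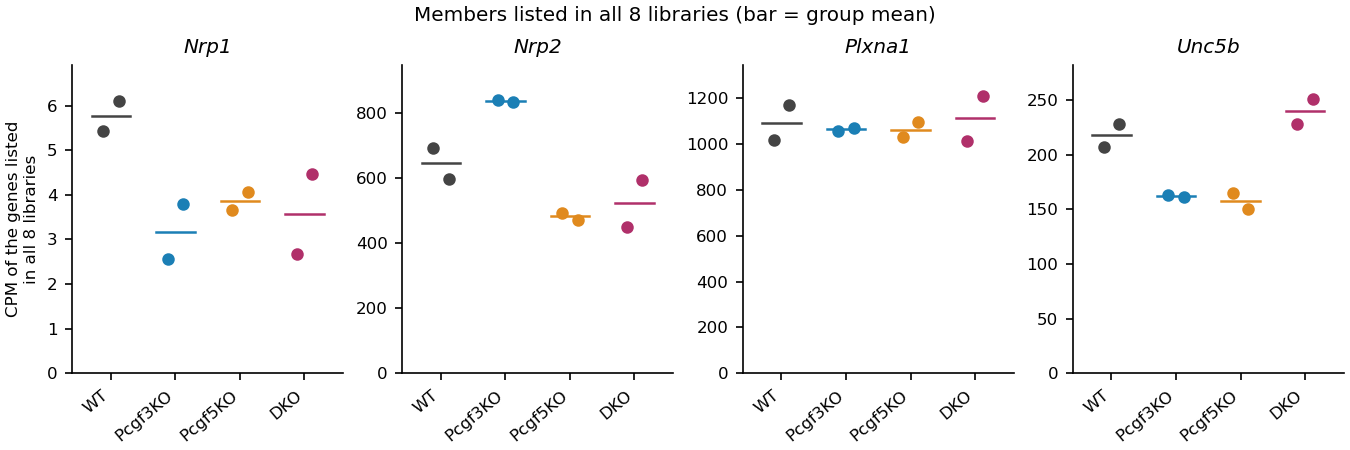
CPM relative to the genes listed in all 8 libraries (vertical axis, from 0) of the 4 members that WT replicate 1 lists, by group (horizontal axis), with points for libraries and bars for group means. Unc5b is at 150 to 165 in the single knockouts and 207 to 251 in WT and DKO, and Nrp2 is highest in Pcgf3KO (840 and 832).

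Plxna2, a receptor for semaphorin 6A and, with neuropilins, for class 3 semaphorins (chromosome 1, 194618218 to 194816869, plus strand; ENSMUSG00000026640), was low but followed an order like that of Unc5b. It had 11.4 CPM in the WT library, 6.85 and 7.21 in the Pcgf3KO libraries, 9.11 and 8.01 in the Pcgf5KO libraries, and 11.5 and 10.8 in the DKO libraries. Both single knockouts lay below WT and DKO. DKO differed from Pcgf3KO by 0.67 ± 0.15 and from Pcgf5KO by 0.38 ± 0.15 on the log2 scale. Its log2 fold changes against WT did not pass (−0.70 ± 0.18, adjusted p = 0.0751 in Pcgf3KO, −0.41 ± 0.18, adjusted p = 0.242 in Pcgf5KO).

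Plxna1, the most abundant member and a plexin partner of neuropilins (chromosome 6, 89316314 to 89362620, minus strand; ENSMUSG00000030084), had 208 CPM in the WT library, 188 and 189 in the Pcgf3KO libraries, 183 and 196 in the Pcgf5KO libraries, and 179 and 214 in the DKO libraries. The knockouts overlapped, and their log2 differences lay between 0.01 and 0.06, each with a standard error of 0.09. Against WT its log2 fold changes were −0.14 ± 0.11, −0.13 ± 0.11 and −0.08 ± 0.11 in Pcgf3KO, Pcgf5KO and DKO (adjusted p = 0.62, 0.57 and 0.747), and the sign of each flipped in at least 1 alternative. An antisense gene, Gm26811, shares 970 exonic bases with it and had a mean of 6.57 reads. The kit does not mark strand, so reads in that stretch cannot be assigned to either.

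Robo1, a SLIT receptor (chromosome 16, 72663149 to 73046095, plus strand; ENSMUSG00000022883), had 87.6 CPM in WT and between 68.4 and 71.6 in the 6 knockout libraries, which overlapped. Its log2 fold changes against WT were −0.31 ± 0.10, −0.33 ± 0.10 and −0.32 ± 0.10 in Pcgf3KO, Pcgf5KO and DKO, and did not pass (adjusted p = 0.146, 0.112 and 0.121). Those 3 comparisons share the same WT library. Nrp1, the other neuropilin gene (chromosome 8, 128359073 to 128505462, plus strand; ENSMUSG00000025810), had 19 reads in each WT library and 9 to 16 in the knockouts. Its log2 fold changes against WT were −0.94 ± 0.55, −0.65 ± 0.55 and −0.76 ± 0.54 in Pcgf3KO, Pcgf5KO and DKO. With 8 libraries they were −0.86 ± 0.43, −0.58 ± 0.44 and −0.67 ± 0.42. None passed edgeR's test (adjusted p = 0.456, 0.56 and 0.47 with 7 libraries, 0.289, 0.449 and 0.337 with 8). On the 8-library scale the WT libraries had 5.43 and 6.1 CPM and the knockout libraries 2.55 to 4.47. The low depth limits what can be detected.

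**Figure D4:**
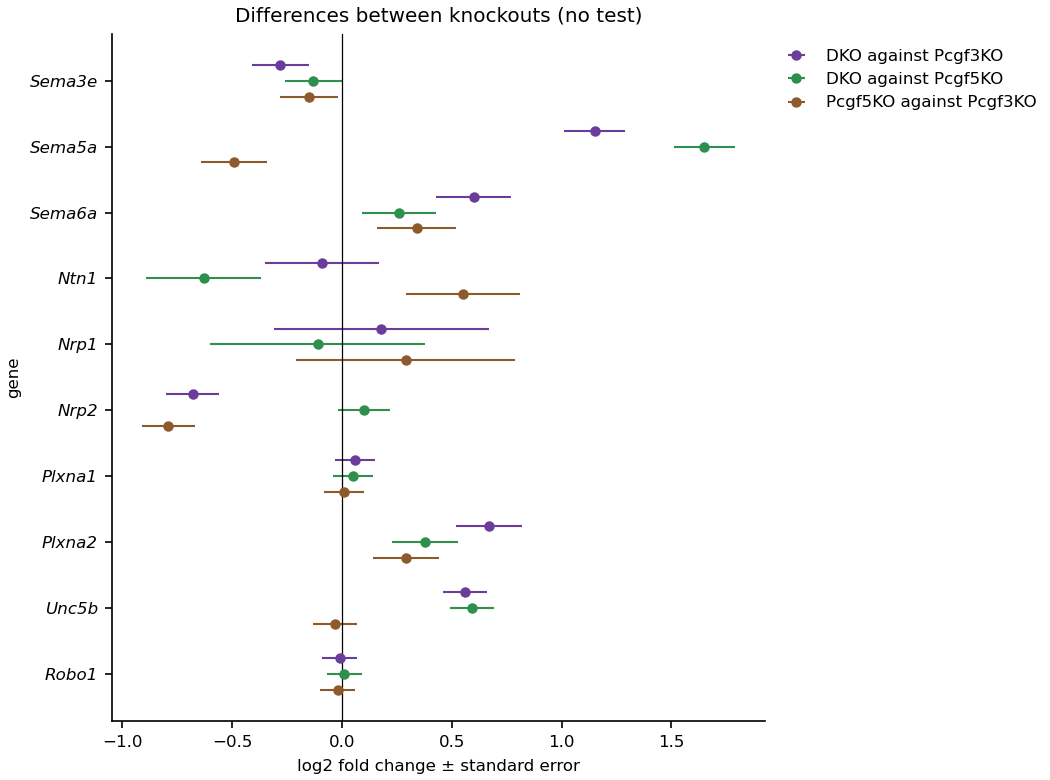
Log2 difference (horizontal axis) ± standard error between knockout groups for the 10 members (vertical axis), with 1 colour per comparison and no test. Sema5a has the largest differences of DKO from the single knockouts (1.15 and 1.65), Nrp2 the most negative ones (−0.79 and −0.68), and Plxna1 and Robo1 lie near 0.

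Across the set, the libraries of DKO and Pcgf3KO did not overlap for 6 of the 10 members, where 46.5% of all 15669 genes tested did not overlap. For DKO and Pcgf5KO this held for 4 members, against 55.0% of all genes. For Pcgf5KO and Pcgf3KO it held for 5, against 53.9%. The choice of members used these comparisons, so nothing is read from the counts. The non-overlapping members in both DKO comparisons were Sema5a, Plxna2 and Unc5b, all higher in DKO. The share of all genes that did not overlap in both was not computed, and Sema5a and Unc5b prompted the set. So nothing is read from this either.

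Against WT the members mostly had lower values in the knockouts, few of which passed the test. In Pcgf3KO 1 of the 10 members was called, Sema6a, lower (2.36% of all genes tested were called, 1.08% higher and 1.28% lower). The median log2 fold change of the 10 was −0.38, against 0.00 over all genes, with 8 values negative and 2 positive. In Pcgf5KO 1 of 10 was called, Sema5a, lower (2.99% of all genes, 1.31% higher and 1.68% lower), a gene that prompted the set, with a median of −0.37 against 0.00 and 9 negative values. In DKO 0 of 10 were called by edgeR and 0 by DESeq2 (3.22% of all genes by edgeR, 1.33% higher and 1.89% lower), with 3 at an unadjusted p below 0.05, a median of −0.14 against 0.01 and 7 negative values. All 3 comparisons share 1 WT library, so a high value there lowers all of them. Each count rests on the fit: without DKO replicate 1 or 2 it was 6 of 10 in Pcgf3KO and 6 in Pcgf5KO, where 20.6% and 20.2% of all genes were called in Pcgf3KO and 26.8% and 26.4% in Pcgf5KO, and without any 1 of the Pcgf3KO or Pcgf5KO libraries it was 0 in both.

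**Figure D5:**
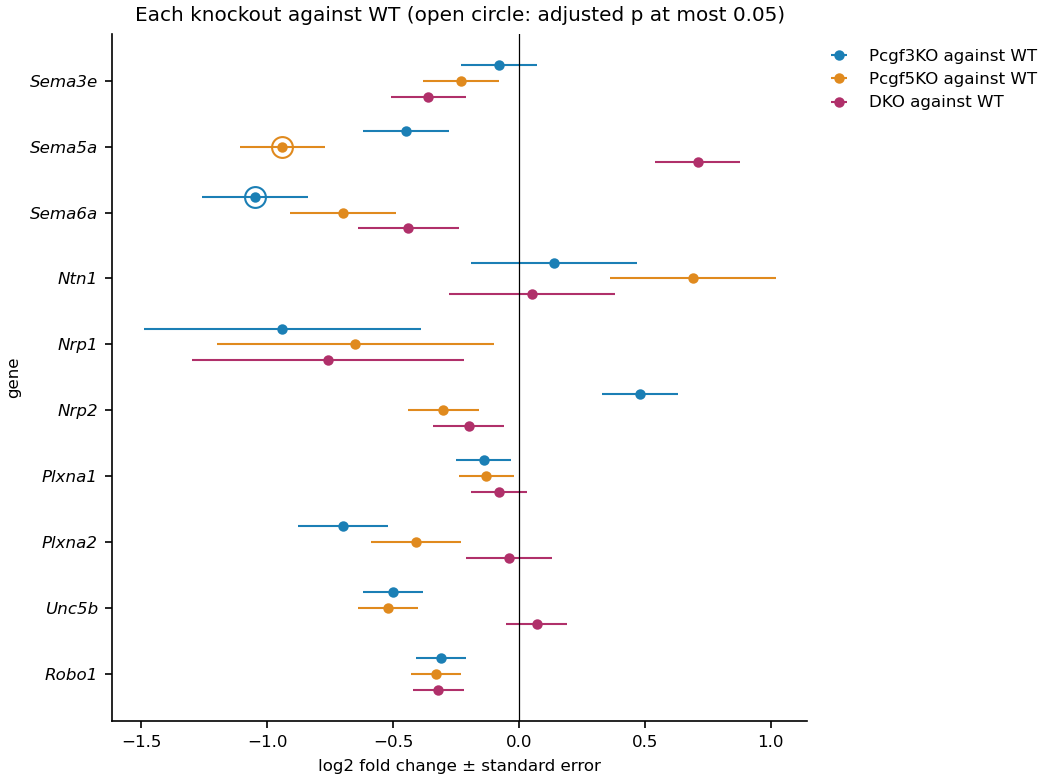
Log2 fold change (horizontal axis) ± standard error of each knockout against WT for the 10 members (vertical axis), with 1 colour per knockout and an open circle where the adjusted p is at most 0.05. The circles mark Sema6a in Pcgf3KO (−1.05) and Sema5a in Pcgf5KO (−0.94), and Sema5a in DKO (0.71) lies on the other side of 0.

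The known partners of the members were measured at unequal levels. Dcc, the classical netrin receptor gene, had 0 reads in all 7 libraries, which allows up to 0.151 to 0.237 CPM by library (3 counts, counting error only), while Neo1, the gene of the related receptor neogenin, had 63.1 to 72.6 CPM. The plexin D1 gene Plxnd1, whose product binds semaphorin 3E, had 11.5 to 14.8 CPM in 6 libraries and 21.4 in DKO replicate 2. Plxnb3, the gene of a semaphorin 5A receptor, had 0 to 6 reads a library, and Plxna3 16.2 to 25.6 CPM. The SLIT ligand genes of Robo1 were low, with Slit3 at 4.38 to 8.71, Slit2 at 3.8 to 6.21 and Slit1 at 0.951 to 3.25 CPM. Ligands of the neuropilins were low too, with Sema3f at 2.8 to 4.9 and Sema3c at 1.36 to 3.13 CPM, and Sema3a at 0 to 5 reads. These genes are named as known partners, outside the rule for named genes.

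The wider guidance families were read from a list of 97 other genes, 96 of them in the tables and 87 past the filter on low counts: 32 ligands, 25 receptors and 30 intracellular effectors. In Pcgf3KO 0 were called higher and 4 lower than in WT (2.36% of all genes were called), with a median log2 fold change of −0.19 against 0.00 over all genes. Epha2, an ephrin receptor gene abundant in ES cells, fell from 345 to 215 and 229 CPM (−0.63 ± 0.10, adjusted p = 0.016). Efna5, an ephrin ligand gene, fell from 20 to 10 and 10.6 (−0.95 ± 0.19, adjusted p = 0.0327). Dpysl3, a collapsin response mediator gene, fell from 157 to 86.9 and 97.4 (−0.77 ± 0.12, adjusted p = 0.0114). These 3 fell beside the lower feeder, neural and endoderm sums of Pcgf3KO, whose part in them was not tested. Without Pcgf3KO replicate 1 or 2 the calls of the list in Pcgf3KO were lost, and fewer of all genes were called too. Those fits leave 1 library in Pcgf3KO and in WT, so nothing is read from the loss.

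In Pcgf5KO, where 2.99% of all genes were called, 0 of the 87 were called higher and 1 lower than in WT, the ephrin receptor gene Epha4 (15.4 CPM in WT, 7.28 and 7.68 in Pcgf5KO, −1.04 ± 0.21, adjusted p = 0.0331). It did not pass without any 1 of the Pcgf3KO or Pcgf5KO libraries (adjusted p at most 0.27 over the alternatives). In DKO 0 were called higher and 3 lower, where 3.22% of all genes were called. Efna5 fell to 10.5 and 7.91 CPM (−1.12 ± 0.19, adjusted p = 0.015), Epha2 to 229 and 268 (−0.47 ± 0.10, adjusted p = 0.045), and Limk2, the gene of a kinase that acts on cofilin, from 162 to 117 and 122 (−0.44 ± 0.09, adjusted p = 0.0292). The part of the lower marker sums in the Pcgf5KO and DKO values was not tested. Without any 1 of the single knockout libraries the DKO calls of the list were lost, and fewer of all genes were called too. Those fits leave 1 library in a single knockout and in WT, so nothing is read from the loss. Without 1 of the DKO libraries more of the list passed against WT, in both directions, and so did more of all genes. Those fits leave 1 library in DKO and in WT, so nothing is read from the rise. In the fit of all 7 libraries the medians were −0.19 in Pcgf5KO and −0.10 in DKO, against 0.00 and 0.01 over all genes.

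Between the knockouts 1 of the 87 passed in DKO against Pcgf3KO (1.74% of all genes were called). It was Sema5b, the close relative of Sema5a, with 13 and 12.8 CPM in Pcgf3KO and 20.7 and 19.2 in DKO (0.63 ± 0.12, adjusted p = 0.0351). Sema5b had 14.2 in WT and 13.2 and 14 in Pcgf5KO, so the DKO libraries were the highest of the 7 for both Sema5 genes. Both genes were picked for differences between these knockouts, so nothing is read from the match. The Sema5b call was lost without any 1 of the single knockout libraries (adjusted p at most 0.396 over the alternatives). In DKO against Pcgf5KO edgeR called 0 of the 87 (15 at an unadjusted p below 0.05, and 2 called by DESeq2), where 2.28% of all genes were called. In Pcgf5KO against Pcgf3KO it called 0 (8 unadjusted, 0 by DESeq2), where 0.140% were.

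The neighbours of the 3 genes, chosen after the members' values were seen, did not pass in any comparison. Snhg18, a noncoding RNA gene on the minus strand, starts 0.151 kb from the start of Sema5a and was read at 1.36 to 2.11 CPM. Its log2 difference of DKO was 0.36 ± 0.32 from Pcgf3KO (adjusted p = 0.573) and 0.33 ± 0.33 from Pcgf5KO (adjusted p = 0.546). On the other side Sdc2, 224 kb away, had 0.19 ± 0.10 (adjusted p = 0.335) and 0.22 ± 0.10 (adjusted p = 0.206). For Nrp2, the log2 difference of Pcgf5KO from Pcgf3KO was −0.31 ± 0.18 in Ino80d (adjusted p = 0.647) and 0.05 ± 0.18 in Gm29084 (adjusted p = 0.945). For Unc5b, Slc29a3, 9.82 kb away, had 0.15 ± 0.11 in DKO against Pcgf3KO (adjusted p = 0.498) and 0.26 ± 0.11 against Pcgf5KO (adjusted p = 0.182). Gm20625, on the other side of Unc5b, was read at 0.285 to 1.16 CPM with standard errors of 0.60 to 0.98, so a difference of the size seen in Unc5b was not detectable there.

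Genes with the most similar profile were sought by Pearson correlation of log2 CPM over the 7 libraries. The search covered 10646 named genes with a mean log2 CPM of 2 or more, and left out predicted genes (Gm or Rik symbols). The libraries share their group structure, and r is given as a description, with no p. Closest to Sema5a were Ccdc93 (r = 0.992), Hnrnpd (0.991) and Eif2ak4 (0.990). Ccdc93 had 35.8 CPM in WT, 25.7 to 29.1 in the single knockouts, and 44.5 and 42.2 in DKO. The size of a change does not enter r: Hnrnpd had 272 to 291 CPM over the 7 libraries and Eif2ak4 38.7 to 50.3, where Sema5a had 8.98 to 32.3. Closest to Nrp2 were Ppef2 (0.980), Fam160a1 (0.979) and Jade3 (0.975), and Fam160a1 had 8.92 and 9.06 CPM in Pcgf3KO against 4.74 to 6.97 in the other 5 libraries. Closest to Unc5b were Csnk1e (0.994), Slc35g1 (0.982) and Hs6st2 (0.982), with Csnk1e at 65.9 CPM in WT, 54.9 to 56.5 in the single knockouts and 67.3 and 70.8 in DKO.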

How the data were processed

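Per the labels' protocols, poly-A RNA went into the NEBNext Ultra kit, which does not mark strand. The authors deposited 1 table of whole-number read counts per Ensembl gene for each library. Per the submitters' processing notes, which give no roles, TopHat2 2.0.12, Cufflinks 2.2.1, HTSeq 0.6.0 and mm10 were used; annotation release and strand setting: not given in the sources used here. Counts were tested with edgeR 4.0.16 in R 4.3.3 (quasi-likelihood test, TMM, filterByExpr, group as the only term) over 15669 genes in 7 libraries, with 3 residual degrees of freedom, and over 2702 genes in all 8, with 4. The single WT library of the 7 is assumed to vary like the other groups. A call is a p of 0.05 or less after Benjamini-Hochberg adjustment across every gene in the fit. Exonic lengths and symbols come from GENCODE M21. The script was tested on simulated data. DESeq2 1.42.0, 2 scalings, no filter, left-out libraries and a replicate block were tried. The members and lists were chosen with earlier results of these data known. Named are the members, up to 4 genes of the wider list per comparison and direction with the smallest p, the 3 most similar genes of Sema5a, Nrp2 and Unc5b, Pcgf3, Pcgf5 and the 2 most abundant markers of each list. A 4th gene of the wider list that was lower in Pcgf3KO is counted but not reported here.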

Additional observations from a re-analysis of the deposited data

How the results depend on the processing

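Of members called, Pcgf3KO against WT gave 0 to 6 and Pcgf5KO 0 to 6 with 1 library left out (0 also with the 8-library test without either WT library), and DKO 0 to 6 (4 and 6 without DKO replicates 1 and 2, where 16.2% and 34.5% of all genes were called). With no filter on low counts these were 4, 4 and 1 (4.34%, 4.80% and 5.79% of all genes), and with the libraries of the 2 groups only 6, 9 and 0 (20.1%, 32.7% and 2.12%). Of the wider list, leaving out 1 library gave 0 to 26 in Pcgf3KO, 0 to 31 in Pcgf5KO and 0 to 28 in DKO against WT, 0 to 24 and 0 to 29 in DKO against Pcgf3KO and Pcgf5KO, and 0 to 10 between the single knockouts. The highest of these came without a DKO library, where 20.2% to 34.5% of all genes were called against WT in the same fits, 35.8% and 42.3% in DKO against Pcgf3KO and Pcgf5KO, and 12.2% to 12.4% between the single knockouts. No filter gave 11, 9, 9, 9 and 6 in the first 5 of these comparisons (4.34%, 4.80%, 5.79%, 5.32% and 9.07% of all genes). The 2 groups only gave 27, 34, 1 and 0 in the first 4 and 10 in the last. There 20.1%, 32.7%, 2.12%, 0.236% and 13.0% of all genes were called, in that order. DESeq2 gave 2 in Pcgf5KO against WT and 2 in each of DKO against Pcgf3KO and DKO against Pcgf5KO. It called 3.95%, 3.03% and 7.71% of the genes with an adjusted p in these comparisons. Its size factors in edgeR gave 2 in DKO against Pcgf5KO (2.37% of all genes). The 8-library test, which covers 9 genes of the list, gave 1 call in each knockout against WT, in the higher direction. It called 5.51%, 8.62% and 8.11% of its genes in Pcgf3KO, Pcgf5KO and DKO. The 7-library calls of the list against WT were in the lower direction. In DKO against Pcgf3KO the 8-library test gave 0 (0.518% of its genes). With 1 library left out, counts of 0 came in fits that called a smaller share of all genes than the fits with no library left out.

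The replicate numbers are shared by the groups, but the correlation of replicate differences was −0.0139, 0.135 and 0.0101 between pairs of knockouts, so they were not taken as pairs. With the replicate number as a block, 2 genes of the wider list passed in Pcgf5KO against WT, 2 in DKO against Pcgf3KO and 3 in DKO against Pcgf5KO. In the same fit 4.39%, 3.18% and 9.78% of all genes were called in these comparisons.

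Of the members' fold changes against WT, 296 of the alternative values kept direction and side of the threshold, 51 newly passed, 8 no longer passed and 8 turned sign. Those 8 were Plxna1 (0.07 in Pcgf3KO and 0.06 in Pcgf5KO with the 8-library test without WT replicate 2, and in DKO 0.03 with 8 libraries, 0.11 without WT replicate 2 and 0.04 without DKO replicate 1) and, in DKO without DKO replicate 2, Ntn1 (−0.61), Plxna2 (0.01) and Unc5b (0.00). With 1 library left out, DKO values ran from −0.61 to 0.50 for Ntn1, from −0.21 to 0.04 for Plxna1, from −0.08 to 0.01 for Plxna2 and from 0.00 to 0.13 for Unc5b in the 7-library fits, and the cause was not tested. Of the alternative values of the members' differences between knockouts, 346 were classed as the same and 20 as moved. A value classed as moved can still lie within the gap between replicates. Ntn1 in DKO against Pcgf5KO moved from −0.63 to −1.29 without DKO replicate 2, where the DKO libraries had 38.9 and 84.4 CPM. Depth limits Nrp1, with 9 to 19 reads a library.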
